A study of Mus musculus with 9 samples.

Results

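The genes described here act in the mineralisation of bone matrix: Ibsp, Dmp1, Mepe, Phex, Phospho1, Alpl, Ank, Smpd3, Ifitm5 and Pdpn. They were picked by gene symbol for their role, by a rule that uses no measured value although earlier results of these data were known when it was set, and make up 10 of the 19938 mouse genes that the arrays measured through a probe set with a single symbol. Each of the 10 was found and had 1 probe set. Their RNA levels were compared in 9 cultures in 3 groups of 3. The osteosarcoma group held 3 tumour lines from adult C57BL/6 mice with the genotype Osx-Cre p53fl/fl Rbfl/fl, described as fibroblastic. Osx-Cre drives recombination from the regulatory sequences of Osx (Sp7), a transcription factor of the osteoblast lineage. The lines were harvested while proliferating and subconfluent, below passage 8, and are called lines 1, 2 and 3 here. Osteoblasts were Kusa4b10 cells, a mouse marrow stromal line, kept for 21 days in medium supplemented with ascorbate. Pre-osteoblasts were undifferentiated Kusa4b10 cells. The osteoblast and pre-osteoblast arrays are therefore separate cultures of 1 line, so their spread holds no difference between animals. Each p-value uses 1 spread per gene, pooled over all 3 groups. In every comparison it therefore holds the spread between the tumour lines as well as that between these cultures. Tumour state cannot be told apart from the origin and culture history of the lines, and differentiation cannot be told apart from the 21 days in culture and the medium.

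Bone mineral forms when calcium and phosphate crystallise in and along a collagen matrix laid down by osteoblasts. Phosphate is released near the matrix and in small vesicles budded from the cell, by Alpl (tissue-nonspecific alkaline phosphatase), which also destroys pyrophosphate, an inhibitor of crystal growth, and by Phospho1, which acts on phosphocholine inside the vesicles. Acidic proteins of the SIBLING family, among them Ibsp, Dmp1 and Mepe, bind mineral, and the peptidase Phex cleaves inhibitory peptides derived from them. Dmp1, Mepe, Phex and Pdpn are also used as markers of osteocytes, the cells that osteoblasts become inside bone. Mineral itself was not measured in these files.

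Levels are log2 intensities after robust multi-array averaging (RMA), so a difference of 1 is a 2-fold change. The 9 array medians lay between 7.43 and 7.56, and differences near the dim end of the scale are compressed. A gene was called changed when its adjusted p was below 0.05 in limma with Benjamini-Hochberg adjustment over all 19938 genes, and every adjusted p below is from that fit. Line 3 went against its label: it is labelled female, but Xist was 12.7 in line 1 (labelled female), 5.27 in line 2 (labelled male) and 5.56 in line 3, and the Y-linked genes Kdm5d, Eif2s3y and Uty were high in lines 2 and 3. Values without line 3 are given where they change a call among the 10 genes, and for the gene lists only in part. Over all genes 10.3% were called higher and 15.8% lower in osteoblasts than in pre-osteoblasts. In the lines against osteoblasts these shares were 14.7% and 12.7%. Of 9 genes on the list of osteoblast markers, 7 were measured. Of these 7, 4 (Ibsp, Alpl, Pth1r and Sp7) were called higher and none lower in osteoblasts than in pre-osteoblasts (1 lower without osteoblast culture 2). The median difference of the 7 was 1.66. In the lines against osteoblasts, 2 (Ibsp and Pth1r) were called lower and none higher (1 lower without line 1), with a median of -1.14. Ibsp and Alpl are also among the 10 mineralisation genes, so these counts partly repeat results of those genes. Of these markers Sp7, at 7.84, 8.52 and 9.24 in the lines, 9.34, 10.75 and 8.93 in osteoblasts and 8.53, 7.81 and 7.68 in pre-osteoblasts, had an osteoblast minus pre-osteoblast difference of 1.66 ± 0.51 (adjusted p = 0.0456), a call lost in 6 alternatives. Col1a1, which encodes a chain of the main bone collagen, lay between 12.81 and 13.72 on all 9 arrays. Markers of fat cells were also high in the osteoblast cultures: 7 of 11 adipocyte markers rose over pre-osteoblasts and none fell. Adipoq, which encodes the fat-cell hormone adiponectin, was 12.81, 11.95 and 12.28 in osteoblasts, against 9.05, 6.74 and 7.30 in pre-osteoblasts. The log2 of the summed adipocyte marker level was 11.71 to 13.06 in the osteosarcoma lines, 15.24 to 15.72 in osteoblasts and 13.37 to 13.78 in pre-osteoblasts, and 3, 1 and 2 of the 11 markers lay below the lower quartile of each array of those groups. Of 8 osteoclast markers, 3 were called higher and none lower in osteoblasts than in pre-osteoblasts: Ctsk by 1.80 ± 0.34 (adjusted p = 0.00506), Atp6v0d2 by 1.74 ± 0.19 (adjusted p = 4.04e-04) and Acp5 by 0.35 ± 0.10 (adjusted p = 0.0376, lost in 5 alternatives). Calcr and Dcstamp of the same list were at 6.04 to 6.45 on all arrays. The log2 of the summed osteoclast marker level was 10.56 to 11.26 in the lines, 11.67 to 12.26 in osteoblasts and 10.47 to 10.97 in pre-osteoblasts. At most 1 gene each was called between osteoblasts and pre-osteoblasts among 9 macrophage and haematopoietic, 8 endothelial, 7 epithelial, 10 chondrocyte and 7 skeletal muscle markers. The part of fat cells and osteoclasts in the results on osteoblasts was not tested. In these bulk RNA samples, fewer cells of a type and less RNA per cell cannot be told apart.

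Promoter sequences are shown for the genes that carry the main pattern, Ibsp, Dmp1, Phospho1 and Phex, which were high together in osteoblasts, and for Pdpn, which was not. They come from RefSeq (GRCm38.p6), 250 bases before to 50 bases after the gene start, on the strand of the gene. Of the 10 genes, 9 had an entry. Capitals mark, on either strand, the TATA box (letters TATAAA), the CCAAT box (letters CCAAT), the GC box (letters GGGCGG) and the Runx core (letters TGTGGT). No match overlaps one of another motif in these windows, while copies of the GC box overlap each other in the Phospho1 window.
Ibsp, chr5:104299037-104299336, plus strand: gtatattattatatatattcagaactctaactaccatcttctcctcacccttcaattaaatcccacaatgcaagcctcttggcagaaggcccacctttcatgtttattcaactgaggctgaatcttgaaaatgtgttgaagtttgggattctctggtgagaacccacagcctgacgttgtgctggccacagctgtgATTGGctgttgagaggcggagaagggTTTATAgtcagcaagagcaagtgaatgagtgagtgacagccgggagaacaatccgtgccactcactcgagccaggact
Dmp1, first start, chr5:104197325-104197624, plus strand: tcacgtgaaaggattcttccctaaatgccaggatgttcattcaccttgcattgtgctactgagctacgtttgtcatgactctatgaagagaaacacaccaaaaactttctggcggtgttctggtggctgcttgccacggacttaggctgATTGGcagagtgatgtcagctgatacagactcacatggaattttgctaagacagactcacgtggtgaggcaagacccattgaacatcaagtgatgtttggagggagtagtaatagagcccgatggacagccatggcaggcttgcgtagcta
Dmp1, second start, chr5:104202367-104202666, plus strand: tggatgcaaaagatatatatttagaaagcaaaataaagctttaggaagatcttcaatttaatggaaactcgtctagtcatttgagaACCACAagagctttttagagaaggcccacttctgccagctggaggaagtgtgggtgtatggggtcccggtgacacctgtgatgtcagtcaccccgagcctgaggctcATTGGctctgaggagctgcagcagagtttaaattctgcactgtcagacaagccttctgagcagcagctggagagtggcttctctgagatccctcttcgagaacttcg
Phospho1, chr11:95824250-95824549, plus strand: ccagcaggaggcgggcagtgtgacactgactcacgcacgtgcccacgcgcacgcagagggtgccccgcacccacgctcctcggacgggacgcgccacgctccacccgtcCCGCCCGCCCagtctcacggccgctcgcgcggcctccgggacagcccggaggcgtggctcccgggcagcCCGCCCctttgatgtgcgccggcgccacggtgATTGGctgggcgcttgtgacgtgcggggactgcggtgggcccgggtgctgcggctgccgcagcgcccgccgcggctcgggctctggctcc
Phex, chrX:157415237-157415536, minus strand: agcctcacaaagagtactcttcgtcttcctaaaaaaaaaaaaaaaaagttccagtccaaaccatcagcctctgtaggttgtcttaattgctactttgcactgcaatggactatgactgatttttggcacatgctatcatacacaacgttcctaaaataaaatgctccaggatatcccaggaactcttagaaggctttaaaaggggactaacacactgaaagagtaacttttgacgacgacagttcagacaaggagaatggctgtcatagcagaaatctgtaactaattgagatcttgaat
Pdpn, chr4:143299515-143299814, minus strand: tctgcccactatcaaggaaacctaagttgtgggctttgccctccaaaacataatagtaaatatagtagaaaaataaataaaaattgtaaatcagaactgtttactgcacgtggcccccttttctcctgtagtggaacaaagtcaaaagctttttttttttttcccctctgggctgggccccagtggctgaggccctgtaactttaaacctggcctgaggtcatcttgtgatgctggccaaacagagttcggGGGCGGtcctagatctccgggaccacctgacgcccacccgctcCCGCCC
The genes that moved together shared none of these motifs: the Phex window holds no match to any. CCAAT, read on the other strand, was found in the other 3, with the first base at position -54 from the Ibsp start, -101 and -57 from the Dmp1 starts and -40 from the Phospho1 start. The Ibsp window also holds TATAAA, at position -28, and the second Dmp1 window holds TGTGGT, at position -164. CCAAT is common: it was found in 37.4% of all 32851 promoter windows, and in 4 of the 9 genes with an entry, the 4th being Mepe, which was not called in any comparison (position -21). TATAAA was found in 13.6% of the windows and in 3 of the 9 genes, GGGCGG in 35.7% and in 5 genes, TGTGGT in 16.8% and in 2 genes, and the homeodomain letters TAATTA in 5.29% and in 1 gene. Base composition differed widely among the shown windows, with G or C at 46.3% of bases for Ibsp, 47.7% and 47.3% for Dmp1, 48.7% for Pdpn, 38.7% for Phex and 77.0% for Phospho1. A match is a description of the letters and no evidence of binding.

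The differentiated Kusa4b10 cultures had more RNA of most of the mineralisation genes. In osteoblasts against pre-osteoblasts, 7 of the 10 were called higher and none lower, where 10.3% of all genes were called higher and 15.8% lower. The 7 were Ibsp, Phospho1, Dmp1, Phex, Alpl, Smpd3 and Ifitm5, and the median difference of the 10 was 2.88 against 0.00 over all genes. For 8 of the 10 all osteoblast arrays lay above all pre-osteoblast arrays, which held for 19.1% of all genes, and for none did all lie below (25.1% of all genes). Over all genes 2049 were called higher and 3153 lower, and quantile normalization repeated on the deposited values gave 2664 higher and 2656 lower. The number of mineralisation genes called higher was 5 to 7 when single arrays were left out.

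The osteosarcoma lines had low levels of Ibsp, Dmp1, Phex and Phospho1, near those of pre-osteoblasts. Against osteoblasts, 5 of the 10 genes were called lower (Ibsp, Phex, Dmp1, Phospho1 and Ifitm5), where 12.7% of all genes were, and Pdpn alone was called higher, where 14.7% of all genes were. The median difference of the 10 was -1.58 against -0.02 over all genes. All osteosarcoma arrays lay below all osteoblast arrays for 7 genes (19.1% of all genes) and above them for Pdpn (19.6%). Against pre-osteoblasts, Alpl and Pdpn were called higher, where 9.96% of all genes were, and none of the 10 was called lower, where 13.5% of all genes were. All osteosarcoma arrays lay above all pre-osteoblast arrays for these 2 genes (15.4% of all genes) and below them for Ifitm5 (20.2%). The Alpl call depended on single arrays, as given below. The comparisons share groups: osteosarcoma lines enter both of theirs, and each Kusa4b10 group enters the comparison with its counterpart as well.

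**Figure D1:**
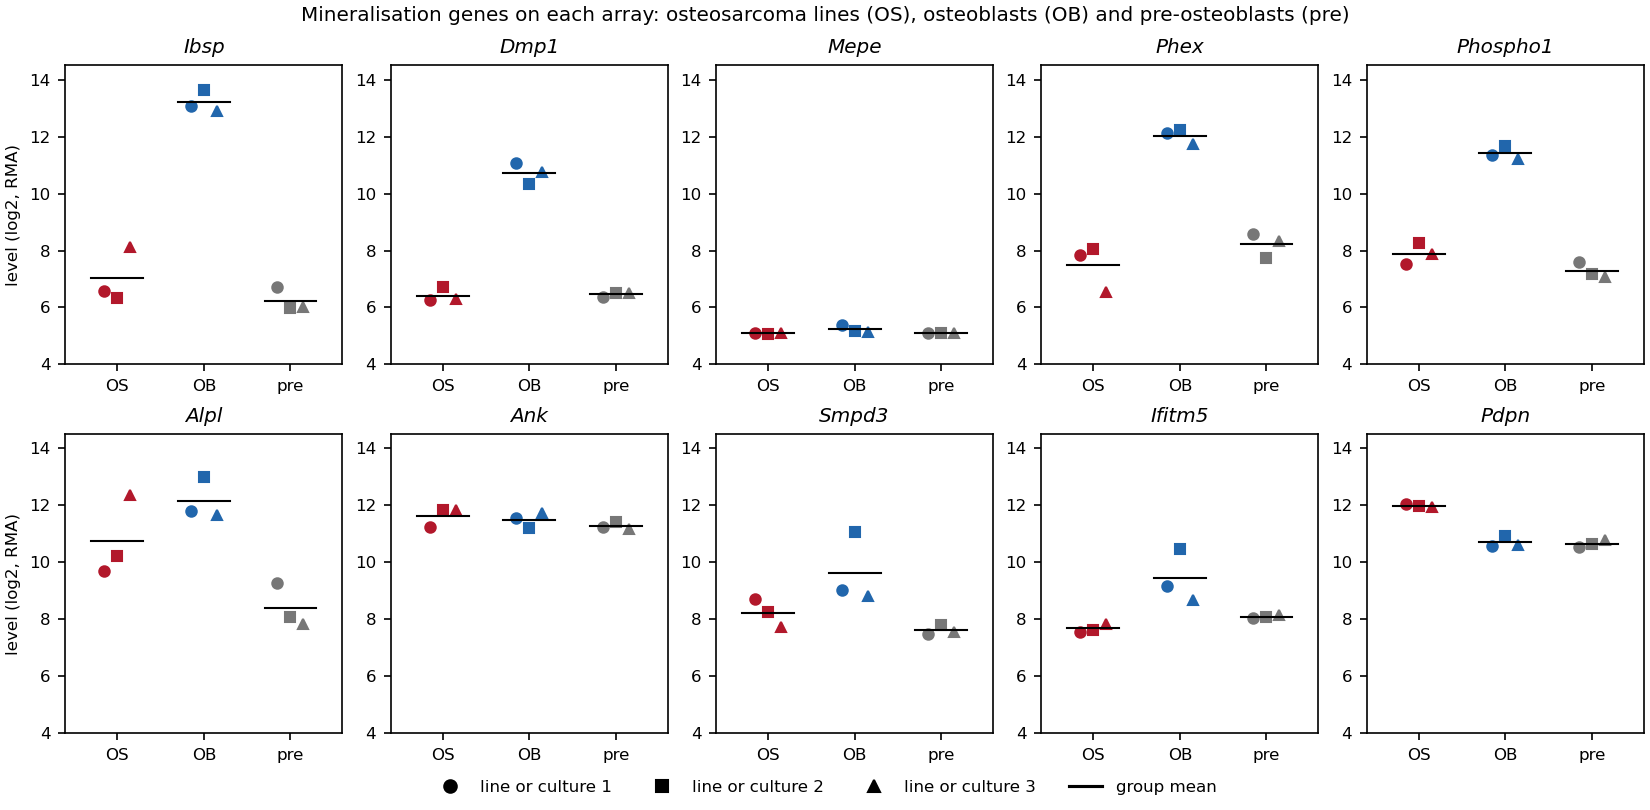
Log2 RNA level (vertical axis) of the 10 mineralisation genes on each array, with osteosarcoma lines, osteoblasts and pre-osteoblasts from left to right in each panel. Circles, squares and triangles are line or culture 1, 2 and 3, and black bars are group means. Ibsp, Dmp1, Phex and Phospho1 are high in osteoblasts only, Ank is at 11.18 to 11.83 everywhere, Pdpn is highest in the osteosarcoma lines, and Mepe lies at 5.07 to 5.38.

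Ibsp encodes bone sialoprotein, an acidic matrix protein that binds collagen and mineral. Its level was 6.59, 6.34 and 8.13 in osteosarcoma lines 1, 2 and 3, 13.07, 13.62 and 12.91 in osteoblasts, and 6.72, 5.97 and 6.01 in pre-osteoblasts. Osteoblast arrays lay far above all others, with line 3 highest of the rest. On 2 of 3 pre-osteoblast arrays and on line 2 the level was below the lower quartile of the array (6.39 to 6.47), where differences are compressed, so the folds below are those of the deposited values and not exact ratios of RNA. Ibsp had the largest rise of all 19938 genes in osteoblasts over pre-osteoblasts, 6.97 ± 0.45 (SE) on the log2 scale or 125-fold (adjusted p = 4.61e-05). Osteosarcoma lines were lower than osteoblasts by 72.5-fold, the 2nd largest fall of all genes (difference -6.18 ± 0.45, 95% interval -7.22 to -5.14, adjusted p = 8.58e-05). Against pre-osteoblasts the lines differed by 0.79 (95% interval -0.25 to 1.83, adjusted p = 0.272), and by 0.23 without line 3.

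Dmp1, which encodes dentin matrix protein 1, an osteocyte and mineral-binding protein, was also high in osteoblasts alone. It was at 6.28, 6.71 and 6.29 in the osteosarcoma lines, 11.07, 10.35 and 10.75 in osteoblasts, and 6.36, 6.52 and 6.52 in pre-osteoblasts. The lines and the pre-osteoblasts overlapped near the lower quartile of the arrays, and 2 lines and 1 pre-osteoblast culture lay below it, so the limit given for the Ibsp folds holds here too. Osteosarcoma lines were 19.7-fold lower than osteoblasts (difference -4.30 ± 0.18, adjusted p = 7.74e-06). Osteoblasts were 19.1-fold higher than pre-osteoblasts (difference 4.26 ± 0.18, adjusted p = 1.18e-05). Lines minus pre-osteoblasts gave -0.04 (95% interval -0.47 to 0.38, adjusted p = 0.91), and 0.03 without line 1 or 0.02 without line 3.

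Mepe encodes matrix extracellular phosphoglycoprotein, an osteocyte product. Its level was 5.12, 5.07 and 5.12 in the osteosarcoma lines, 5.38, 5.17 and 5.14 in osteoblasts, and 5.12, 5.11 and 5.12 in pre-osteoblasts, below the lower quartile of every array. No difference was called: osteosarcoma minus osteoblast was -0.13 (adjusted p = 0.219), osteosarcoma minus pre-osteoblast was -0.01 (adjusted p = 0.923) and osteoblast minus pre-osteoblast was 0.12 (adjusted p = 0.284). Values this dim do not show whether Mepe is transcribed. In the RefSeq gene order on chromosome 5, Sparcl1, Dspp, Dmp1, Ibsp and Mepe are neighbours. Dspp, which encodes the dentin sialoprotein precursor, was not called either, with differences of -0.04 for osteosarcoma minus osteoblast (adjusted p = 0.799) and 0.01 for osteoblast minus pre-osteoblast (adjusted p = 0.933).

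Phex encodes a membrane peptidase whose loss causes X-linked hypophosphataemia, with poorly mineralised bone. Levels were 7.85, 8.05 and 6.54 in the osteosarcoma lines, 12.11, 12.22 and 11.74 in osteoblasts, and 8.59, 7.74 and 8.32 in pre-osteoblasts. Line 3 was the lowest array of all 9. Osteosarcoma lines were 23.2-fold lower than osteoblasts (difference -4.54 ± 0.39, adjusted p = 1.52e-04). Osteoblasts were 14.0-fold higher than pre-osteoblasts (difference 3.80 ± 0.39, adjusted p = 3.38e-04). The lines and pre-osteoblasts overlapped, and their difference of -0.73 (95% interval -1.63 to 0.16) was not called (adjusted p = 0.232) and came to -0.26 without line 3.

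Phospho1 was at 7.52, 8.25 and 7.89 in the osteosarcoma lines, 11.36, 11.67 and 11.21 in osteoblasts, and 7.58, 7.18 and 7.07 in pre-osteoblasts. All osteoblast arrays stood above the rest. It was 11.5-fold lower in osteosarcoma lines than in osteoblasts (difference -3.52 ± 0.21, adjusted p = 3.82e-05) while osteoblasts exceeded pre-osteoblasts 17.6-fold (difference 4.14 ± 0.21, adjusted p = 1.75e-05). Lines exceeded pre-osteoblasts by 0.61 (95% interval 0.13 to 1.1), which was not called (adjusted p = 0.0719), but it was without line 1 (0.80, adjusted p = 0.03).

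Alpl differed from the other phosphatase in the tumour lines. Its level was 9.69, 10.22 and 12.37 in osteosarcoma lines 1, 2 and 3, 11.80, 13.01 and 11.66 in osteoblasts, and 9.28, 8.09 and 7.82 in pre-osteoblasts. Line 3 lay within the osteoblast range, and lines 1 and 2 lay between the osteoblasts and the pre-osteoblasts. Osteoblasts exceeded pre-osteoblasts 13.6-fold (difference 3.76 ± 0.72, adjusted p = 0.00581). Osteosarcoma minus osteoblast was -1.40 (95% interval -3.05 to 0.26, adjusted p = 0.204), and -2.20 without line 3, where it was called (adjusted p = 0.02), and -0.86 without line 1. Lines exceeded pre-osteoblasts 5.16-fold (difference 2.37 ± 0.72, adjusted p = 0.0468), but the difference was 1.56 without line 3 (adjusted p = 0.0779), and the call was lost in 10 of 17 alternatives.

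Smpd3 encodes neutral sphingomyelinase 2, which frees phosphocholine, the substrate of Phospho1, from membrane lipid. It was at 8.70, 8.26 and 7.73 in the osteosarcoma lines, 9.02, 11.05 and 8.81 in osteoblasts, and 7.49, 7.80 and 7.57 in pre-osteoblasts. Osteoblast culture 2 stood 2.14 above the mean of the other osteoblast cultures, and only 0.01% of genes were as far from them in that culture. The rise in osteoblasts over pre-osteoblasts was 2.01 ± 0.54 (4.01-fold, adjusted p = 0.0268). Without osteoblast culture 2 it was 1.29 (adjusted p = 0.0107), and it was not called without pre-osteoblast culture 1, 2 or 3 (adjusted p = 0.0779, 0.0632 and 0.0773). Osteosarcoma arrays were all below osteoblast arrays, by 1.39 on average (difference -1.39, 95% interval -2.64 to -0.15), which was not called (adjusted p = 0.0962) and came to -0.68 without osteoblast culture 2. Osteosarcoma minus pre-osteoblast was 0.61 (95% interval -0.64 to 1.86, adjusted p = 0.493), and 0.38 without line 1.

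Ank, a membrane protein required for the release of pyrophosphate from cells, had close group means: 11.63 in the lines, 11.49 in osteoblasts and 11.28 in pre-osteoblasts. It was at 11.25, 11.83 and 11.82 in the osteosarcoma lines, 11.55, 11.19 and 11.72 in osteoblasts, and 11.24, 11.43 and 11.18 in pre-osteoblasts. All 3 groups overlapped. Within groups Ank varied more than most genes. Its range was 0.58 over the lines and 0.53 over osteoblast cultures, against medians of 0.22 and 0.16 over all genes. The differences were 0.14 for osteosarcoma minus osteoblast (95% interval -0.29 to 0.57, adjusted p = 0.642), 0.35 for osteosarcoma minus pre-osteoblast (-0.08 to 0.77, adjusted p = 0.236) and 0.21 for osteoblast minus pre-osteoblast (-0.22 to 0.63, adjusted p = 0.499). These intervals leave out a change of 1 on the log2 scale in either direction. Without line 1, osteosarcoma minus pre-osteoblast was called at 0.54 (adjusted p = 0.0466).

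Ifitm5 encodes a small membrane protein of osteoblasts, and a mutation in its human counterpart causes a form of brittle bone disease. Its level was 7.56, 7.63 and 7.84 in the osteosarcoma lines, 9.17, 10.47 and 8.68 in osteoblasts, and 8.03, 8.08 and 8.15 in pre-osteoblasts. The groups did not overlap, and the osteosarcoma lines lay lowest. Osteosarcoma lines were 3.40-fold lower than osteoblasts (difference -1.76 ± 0.38, adjusted p = 0.00945). Osteoblasts exceeded pre-osteoblasts by 1.36 ± 0.38 (2.56-fold, adjusted p = 0.0309), and by 0.84 without osteoblast culture 2 (adjusted p = 0.00698). That call was lost without osteoblast culture 1 (adjusted p = 0.0583) or any pre-osteoblast culture (adjusted p = 0.0767 to 0.0849). Osteosarcoma minus pre-osteoblast was -0.41 and was not called (adjusted p = 0.516). A fit of only these 2 groups called it (adjusted p = 0.0292).

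The neighbours of Ifitm5 in the gene order, Ifitm1 and Ifitm2, which belong to a family of antiviral membrane proteins, went the other way. In osteoblasts against pre-osteoblasts Ifitm1 fell by 0.74 ± 0.12 (adjusted p = 0.00267) and Ifitm2 fell by 0.52 ± 0.08 (adjusted p = 0.00192), and Ifitm3 of the same family fell by 0.80 ± 0.11 (adjusted p = 0.00136). Of 9 genes of the Ifitm family and its membrane partners, 2 were called higher in osteoblasts than in pre-osteoblasts, Ifitm5 and Fkbp11, a partner of Ifitm5, and 3 lower (1 higher without osteoblast culture 1 or pre-osteoblast culture 2 or 3). Over all genes 10.3% were called higher there and 15.8% lower. Fkbp11 rose by 0.76 ± 0.13 (adjusted p = 0.00332). Their median difference was -0.37 against 0.00 over all genes.

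Pdpn encodes podoplanin, a membrane glycoprotein of early osteocytes and of lymphatic endothelium. It was at 12.05, 11.96 and 11.93 in the osteosarcoma lines, 10.56, 10.91 and 10.62 in osteoblasts, and 10.54, 10.64 and 10.80 in pre-osteoblasts. The 3 lines agreed within 0.12 and lay above every Kusa4b10 array, while the Kusa4b10 groups overlapped. Lines exceeded osteoblasts 2.43-fold (difference 1.28 ± 0.10, adjusted p = 1.18e-04) and pre-osteoblasts 2.50-fold (difference 1.32 ± 0.10, adjusted p = 1.39e-04). Osteoblast minus pre-osteoblast was 0.04 (95% interval -0.20 to 0.28, adjusted p = 0.846). Lyve1 and Prox1, markers of lymphatic endothelium, were at 6.27 to 6.69 and 5.94 to 6.17 over all arrays. Flt4, another lymphatic endothelial marker, was at 6.78, 6.65 and 7.56 in the lines, above its 6.23 to 6.55 on the Kusa4b10 arrays (difference 0.62 from osteoblasts, adjusted p = 0.0691, and 0.54 from pre-osteoblasts, adjusted p = 0.121). Tek, a marker of endothelium in general, was at 9.02, 6.28 and 7.15 in the lines and at 6.06 to 6.30 on the Kusa4b10 arrays. The log2 of the summed level of 8 endothelial markers was 9.28 to 10.07 in the lines, 9.22 to 9.28 in osteoblasts and 9.22 to 9.24 in pre-osteoblasts, and none of the 8 was called in any comparison over all arrays. Without line 2, 2 of the 8 were called higher in the lines than in each Kusa4b10 group. Over all genes and all arrays, 14.7% were called higher and 12.7% lower in the lines than in osteoblasts. These shares were 9.96% and 13.5% in lines against pre-osteoblasts, and 10.3% and 15.8% in osteoblasts against pre-osteoblasts. The part of endothelial cells in the Pdpn result was not tested.

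**Figure D2:**
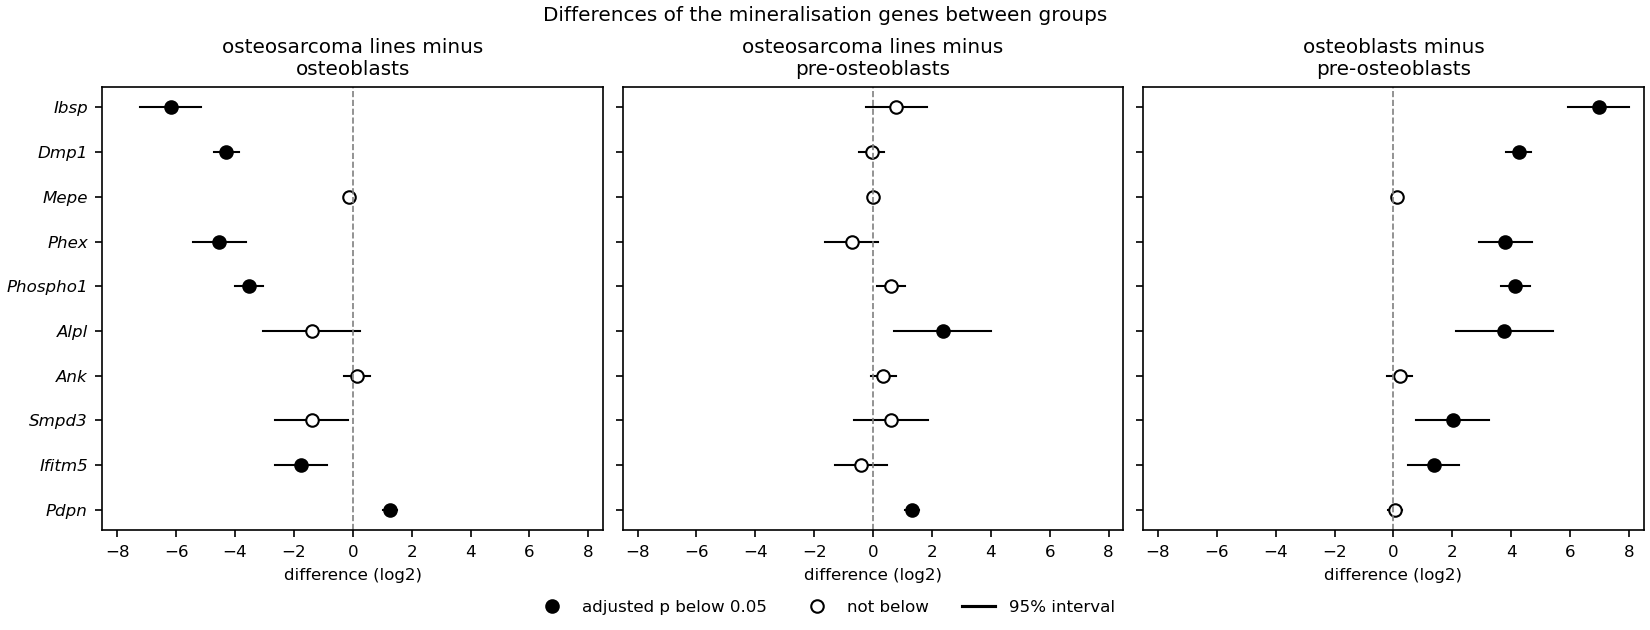
Log2 difference of each gene (horizontal axis) in 3 panels, osteosarcoma minus osteoblast, osteosarcoma minus pre-osteoblast and osteoblast minus pre-osteoblast. Dots are differences, lines are 95% intervals, and filled dots have an adjusted p below 0.05. Ibsp is the farthest from 0 in the first and last panels, at -6.18 and 6.97, and Pdpn is positive in the first and second, at 1.28 and 1.32.

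The tumour lines differed from one another most in Alpl, Ibsp and Phex. Alpl spanned 2.68 over the lines, a range that 0.497% of genes reached, and was 6.4-fold higher in line 3 than in line 1. Ibsp spanned 1.79 (1.52% of genes) and was 3.5-fold higher in line 3 than in line 2. Phex ran the opposite way, spanning 1.51 (2.16% of genes), and was 2.8-fold higher in line 2 than in line 3. Smpd3 spanned 0.96 and was also lowest in line 3. Over all genes the median range was 0.22 between lines, 0.16 between osteoblast cultures and 0.17 between pre-osteoblast cultures, and for the 10 genes it was 0.66, 0.62 and 0.29. Each line has 1 array, so differences between lines have no replicate check. In the Kusa4b10 groups, osteoblast culture 2 was the highest of its group for 7 of the 10 genes and the lowest for Dmp1 and Ank. Pre-osteoblast culture 1 was the highest of its group for 5 genes, among them Alpl at 1.33 above the mean of the others.

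**Figure D3:**
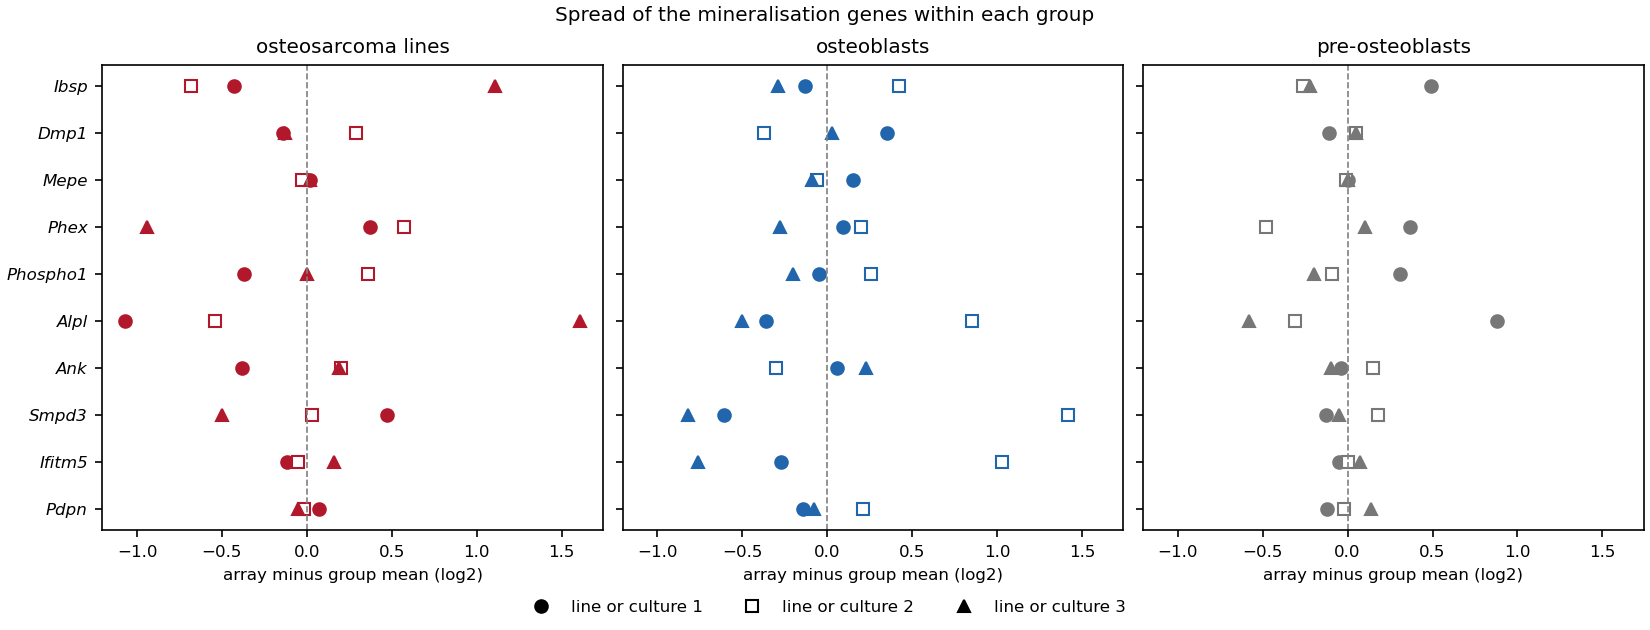
Level of each gene on each array minus its group mean (log2), in 3 panels for the osteosarcoma, osteoblast and pre-osteoblast groups. The range over the lines is 2.68 for Alpl, 1.79 for Ibsp and 0.12 for Pdpn, and the range over osteoblast cultures is 2.24 for Smpd3.

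Over the 9 arrays, Ibsp, Dmp1, Phex and Phospho1 varied together, with pairwise Pearson r of 0.91 to 0.98. The arrays fall into 3 groups, so these values mostly reflect the group means and are given as descriptions. Alpl followed Ibsp (r = 0.81) more than Phex (r = 0.54). Ank lay between -0.27 and 0.39 with the other genes, and Pdpn between -0.57 and 0.35. Among 2332 genes whose group means spanned at least 1, the nearest to Ibsp were F13a1, Hectd2 and Galnt3 (r = 0.994, 0.993 and 0.992). Those nearest to Dmp1 were Gpd1, Retn and Cox8b (r = 0.995, 0.995 and 0.994), and Retn is one of the adipocyte markers. Phex was nearest to Mef2a (r = 0.991), Phospho1 to Gpr141 (r = 0.993), Alpl to Lifr (r = 0.957), Smpd3 to Mamdc2 (r = 0.953), Ifitm5 to Slc8a3 (r = 0.990) and Pdpn to Slc16a3 (r = 0.989). Mepe and Ank had weaker best matches, Rasd1 (r = 0.889) and Pdk4 (r = 0.844).

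**Figure D4:**
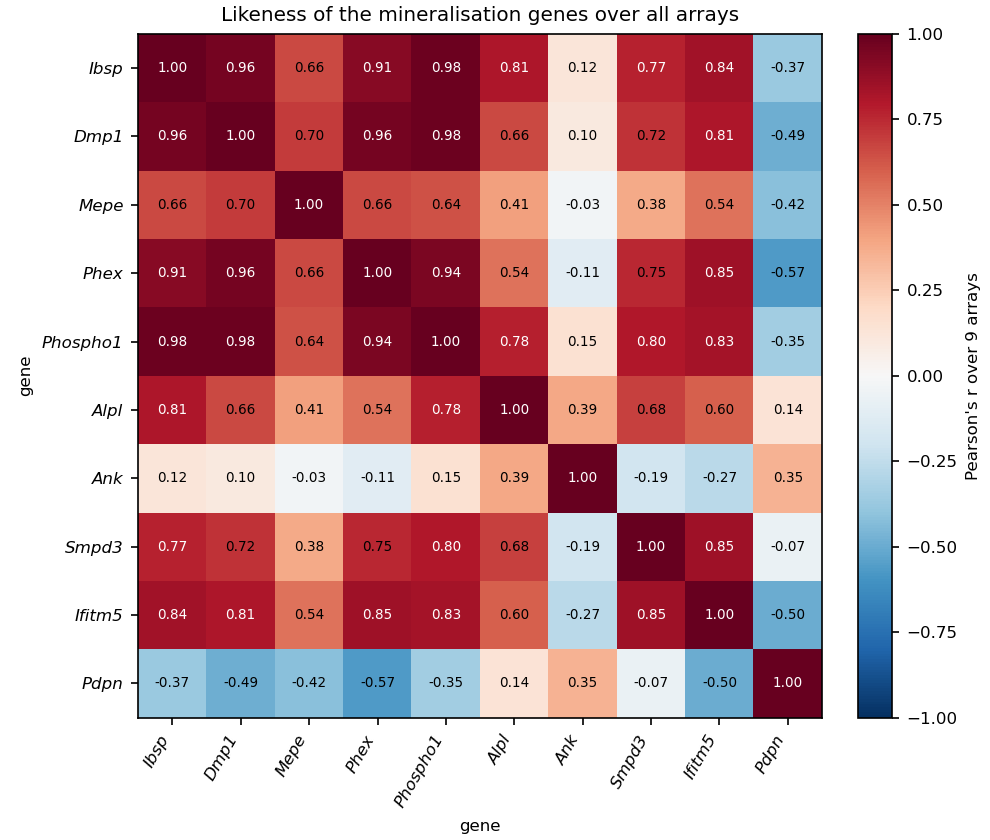
Pearson correlation of log2 levels between the 10 genes over 9 arrays, on a colour scale from -1 to 1. Ibsp, Dmp1, Phex and Phospho1 correlate at 0.91 to 0.98, and Ank and Pdpn stand apart.

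For this list and those that follow, 10.3% of all genes were called higher and 15.8% lower in osteoblasts than in pre-osteoblasts. The shares were 14.7% and 12.7% in lines against osteoblasts, and 9.96% and 13.5% in lines against pre-osteoblasts. The SIBLING and bound matrix proteins had 11 measured genes, Ibsp, Dmp1 and Mepe included. Of these, 5 were called higher and none lower in osteoblasts than in pre-osteoblasts (1 lower without osteoblast culture 2). In lines against osteoblasts, 4 were called lower and none higher (5 lower without line 3). Besides Ibsp and Dmp1 the risers were Mgp, an inhibitor of calcification, by 1.72 ± 0.30 (adjusted p = 0.00388), Fn1, the matrix protein fibronectin, by 0.41 ± 0.06 (adjusted p = 0.00147) and Ahsg, the mineral-binding protein fetuin-A, by 0.29 ± 0.09 (adjusted p = 0.0465), a call lost in 12 of 16 alternatives. The median difference of the list was 0.29 for osteoblast minus pre-osteoblast. Mgp alone was called in lines against pre-osteoblasts, where it was higher (difference 1.11 ± 0.30, adjusted p = 0.0304), and the list had no call there without line 1, osteoblast culture 1 or any pre-osteoblast culture, and 2 without osteoblast culture 2.

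Other genes of phosphate handling moved in both directions. Of 11 measured genes of phosphate and pyrophosphate handling, Alpl, Ank and Phospho1 included, 5 were called higher and 3 lower in osteoblasts than in pre-osteoblasts. In osteosarcoma lines against osteoblasts, 1 was called higher and 5 lower (3 lower without osteoblast culture 1, 4 lower without any 1 line, 2 higher without line 3). The median difference was 0.21 for osteoblast minus pre-osteoblast and -0.35 for osteosarcoma minus osteoblast. Against pre-osteoblasts 2 were called higher in the lines, Alpl and Ppa2, and 2 lower (4 higher without line 1, and 1 higher without any other single array). Nt5e, the ecto-enzyme that makes adenosine from AMP, was at 7.11, 7.70 and 8.37 in the osteosarcoma lines, 9.71, 10.94 and 9.83 in osteoblasts and 6.80, 7.01 and 6.88 in pre-osteoblasts. It was lower in the lines than in osteoblasts by 2.43 ± 0.38 (difference -2.43, adjusted p = 0.00205). Slc20a1, a sodium-phosphate cotransporter, rose by 1.21 ± 0.21 in osteoblasts over pre-osteoblasts (adjusted p = 0.00335). The inorganic pyrophosphatase Ppa2 was highest in the osteosarcoma lines, by 1.09 ± 0.07 over osteoblasts (adjusted p = 5.69e-05) and 0.49 ± 0.07 over pre-osteoblasts (adjusted p = 0.0022). Enpp3, an ectonucleotidase, was lower in lines than in pre-osteoblasts (difference -2.07 ± 0.13, adjusted p = 6.31e-05).

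Among 12 measured genes of vesicle membrane and lipid, 5 were called higher and 4 lower in osteoblasts than in pre-osteoblasts (2 or 3 higher without osteoblast culture 3 or any pre-osteoblast culture). In lines against osteoblasts 4 were called higher and 3 lower, and in lines against pre-osteoblasts 3 higher and none lower (2 lower without line 2, 1 without osteoblast culture 2). Enpp6, a choline phosphodiesterase that makes phosphocholine, was at 6.16, 6.10 and 6.29 in the osteosarcoma lines, 9.71, 9.77 and 9.39 in osteoblasts, and 6.21, 6.14 and 6.34 in pre-osteoblasts, below the lower quartile of the arrays outside the osteoblasts. It rose by 3.40 ± 0.11 in osteoblasts over pre-osteoblasts (adjusted p = 2.37e-06) and was lower in the lines than in osteoblasts by 3.44 (difference -3.44 ± 0.11, adjusted p = 2.56e-06). Sgms2, a sphingomyelin synthase, rose by 2.14 ± 0.17 in osteoblasts over pre-osteoblasts (adjusted p = 8.91e-05). Anxa2 and Anxa6, calcium-binding annexins, were higher in the lines than in osteoblasts by 1.00 ± 0.11 and 1.03 ± 0.11 (adjusted p = 4.49e-04 and 3.63e-04).

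Of 11 kinases and proteases that act on mineral proteins, Phex included, 5 were called higher and 2 lower in osteoblasts than in pre-osteoblasts. Over all genes these shares were 10.3% and 15.8%. In osteosarcoma lines against osteoblasts, 8 were called lower and 1 higher (5 lower without line 1 or any osteoblast culture). Over all genes 12.7% were called lower there and 14.7% higher. Fam20c, the kinase that phosphorylates SIBLING proteins, was at 8.86, 8.86 and 8.11 in the lines, 11.66, 10.84 and 11.61 in osteoblasts, and 8.60, 8.80 and 8.43 in pre-osteoblasts. It was lower in lines than in osteoblasts (difference -2.76 ± 0.27, adjusted p = 2.51e-04) and its difference from pre-osteoblasts was 0.00 ± 0.27 (adjusted p = 0.997). Furin, a proprotein convertase, was the 1 gene of the list called in lines against pre-osteoblasts, where it was lower (difference -0.95 ± 0.08, adjusted p = 1.67e-04), and 3 genes were called lower there without line 3. The median difference of the list was 0.75 for osteoblast minus pre-osteoblast and -1.12 for osteosarcoma minus osteoblast.

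Among 14 osteocyte genes, Dmp1, Mepe, Phex and Pdpn included, 7 were called higher and 1 lower in osteoblasts than in pre-osteoblasts, and 2 were called higher and 7 lower in osteosarcoma lines than in osteoblasts. The 2 higher were Pdpn and Capg, an actin-capping protein, and 1 was left without line 1, line 3, pre-osteoblast culture 3 or any osteoblast culture. Against pre-osteoblasts 2 were called higher in the lines, Pdpn and Mef2c, and none lower (1 lower without line 3). Hyou1, a chaperone, rose by 1.85 ± 0.15 in osteoblasts over pre-osteoblasts (adjusted p = 1.02e-04), and Mef2c, a transcription factor, rose by 3.06 ± 0.32 (adjusted p = 3.48e-04). Mef2c was also higher in the lines than in pre-osteoblasts, by 1.71 ± 0.32 (adjusted p = 0.00577). Gja1, which encodes a gap junction protein, rose by 1.16 ± 0.26 in osteoblasts over pre-osteoblasts (adjusted p = 0.0125). Sost, which encodes sclerostin, rose by 0.52 ± 0.10 (adjusted p = 0.00664). Fgf23 was at 6.99 to 7.20 on all arrays and was not called there (difference 0.01, adjusted p = 0.937). Among 9 genes of hormone and vitamin D input, Pth1r, the receptor for parathyroid hormone, rose by 2.86 ± 0.41 in osteoblasts over pre-osteoblasts (adjusted p = 0.00157), and Tnfrsf11b, the decoy receptor osteoprotegerin, was lower in lines than in both Kusa4b10 groups, with differences of -2.64 ± 0.43 against osteoblasts (adjusted p = 0.00254) and -2.66 ± 0.43 against pre-osteoblasts (adjusted p = 0.0031). Of these 9, 3 were called higher and 2 lower in osteoblasts than in pre-osteoblasts (1 lower without pre-osteoblast culture 2 or 3 or any osteoblast culture). The 2 lower were Vdr, the vitamin D receptor (difference -1.59 ± 0.41, adjusted p = 0.0218), and Rxra (difference -0.45 ± 0.11, adjusted p = 0.017). In lines against osteoblasts, 4 of the 9 were called lower and none higher (2 lower without line 1, 1 higher without line 2).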

How the data were processed

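Total RNA from 9 cultures was hybridised to 1-colour biotin arrays. The deposited values are log2 expression values per probe set that the authors made with RMA, and the genome build named is mm9, per the submitters' processing notes (no version is given there). Of 35556 probe sets, 21789 had 1 gene symbol, 1621 several and 12146 none, and only the first kind was used. For 999 genes with more than 1 probe set, the one with the highest mean was taken, leaving 19938 genes. The 3 group means were fitted over all 9 arrays by limma (version 3.58.1, R version 4.3.3), using lmFit and then eBayes, with 6 residual degrees of freedom. The code was tested on simulated data. P-values had Benjamini-Hochberg adjustment over all genes. Arrays of a group correlated over genes at 0.982 to 0.987 between the 3 tumour lines and at 0.993 to 0.998 between Kusa4b10 cultures. Alternatives were another normalization, filters on dim genes, other probe set and variance rules, and each array left out. Their effect is given in the closing section. Array number limits the precision. The members and lists were chosen with earlier results of these data known. Named genes are the members, up to 6 called genes per list by largest difference, any gene of a list of 8 or fewer, and the 3 genes most correlated with each member. Col1a1, Dspp, Fgf23 and the neighbouring and sex-linked genes were named in addition, after their values were seen. Promoters came from RefSeq tables.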

Additional observations from a re-analysis of the deposited data

How the results depend on the processing

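Of the 30 differences of single genes, 15 were called, 12 of them under every alternative that gave a value. Alpl for osteosarcoma minus pre-osteoblast, and Smpd3 and Ifitm5 for osteoblast minus pre-osteoblast, lost the call in at least 1. Of 106 called differences of the other named genes of the lists and marker lists, 81 were called under every alternative that gave a value and 25 lost the call in at least 1. The number of mineralisation genes called higher in osteosarcoma lines than in pre-osteoblasts was 2, and 1 when the osteoblast arrays were kept out of the fit or each group had 1 array weight. Leaving out single arrays gave 1 to 4 such genes, and 1225 to 2117 of all genes against 1986. Without the osteoblast arrays 1 gene, Ifitm5, was called lower. Differences near 0 turned sign: Dmp1 for osteosarcoma minus pre-osteoblast (-0.18 to 0.03 over single arrays left out) to 0.03 and 0.02 without line 1 or 3, Mepe there to 0.01 with quantile normalization and 0.00 without line 2, Ank for osteosarcoma minus osteoblast to -0.01 without osteoblast culture 2 (0.33 without line 1), and Pdpn for osteoblast minus pre-osteoblast to -0.07 without osteoblast culture 2 and -0.02 without pre-osteoblast culture 1 (0.11 without culture 3). The causes were not tested. With a replicate block, osteoblast minus pre-osteoblast had 2309 genes higher and 3574 lower, 7 of them mineralisation genes. Deviations of genes from their group mean correlated between same-numbered cultures at 0.152, 0.176 and 0.028. Those of osteoblast culture 3 correlated best with those of pre-osteoblast culture 1 (0.077), so the numbers were not taken as pairs. Filters on dim genes dropped Mepe, and the median filter also Dmp1, so they gave no value there. Low signal limits Mepe throughout.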
